A study of Mus musculus with 11 samples.

Results

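The genes described here are 33 transcripts of the amino acid response: 15 that belong to or act under the transcription factor ATF4 (Atf4, Atf3, Ddit3, Nupr1, Trib3, Ddit4, Sesn2, Chac1, Asns, Psat1, Psph, Phgdh, Shmt2, Mthfd2 and Cth) and 18 that encode cytosolic aminoacyl-tRNA synthetases. They were chosen by symbol out of the 31936 genes in the table, with earlier results of these data known. All 33 symbols were found, and 32 had enough reads to test. RNA sequencing was done on 11 libraries of peritoneal macrophages elicited with thioglycollate in female mice: 5 libraries of cells treated with a negative control and 6 of cells treated with a microRNA-150 mimic, a synthetic RNA that stands in for this microRNA. The labels give no strain, age, dose, time or transfection method, and leave it unsaid if each replicate was another animal, so p-values measure the spread between these libraries, which may be technical. They also do not say if the control was delivered in the same way as the mimic, and an untreated group was not analysed here.

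Cells that run short of amino acids accumulate uncharged transfer RNA, which activates the kinase GCN2. GCN2 and the related kinases PERK, PKR and HRI phosphorylate the translation factor eIF2, which lowers general translation while ATF4 protein is made more efficiently from its messenger RNA. ATF4 then binds, often with C/EBP proteins, to composite elements near genes for amino acid synthesis, transport and charging onto transfer RNA. In macrophages the pathway is known to respond to amino acid depletion, endoplasmic reticulum stress and innate stimuli. These libraries measured transcripts only, so ATF4 protein and eIF2 phosphorylation were not measured.

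Depth ranged from 18538509 to 25473814 reads per library. Macrophage markers were abundant in both groups: 8 listed genes, among them Lyz2, Cd68 and Csf1r, summed to between 18086 and 20403 reads scaled to library size (CPM) in controls and between 16310 and 19698 CPM with the mimic. Most of the sum was Lyz2, and the listed genes moved in both directions. Fcgr1 (log2 fold change 1.32) and Adgre1 (0.18) were higher with the mimic (limma adjusted p = 4.05e-09 and 0.0079). Lyz2 (-0.23) and Cd14 (-0.26) were lower (limma adjusted p = 0.0251 and 0.0153). Cd68, Csf1r, Itgam and Mertk did not pass. The lists for B, T, natural killer and mast cells each summed to at most 2.15 CPM in any library. The neutrophil list summed to between 90.7 and 97.5 CPM in controls and between 77.6 and 102 CPM with the mimic. Most of it was Mmp8, at 68.4 to 92.7 CPM over all libraries, and S100a8, at 12.9 to 16.3 CPM in controls and 7.96 to 14.6 CPM with the mimic, was lower (log2 fold change -0.56; limma adjusted p = 0.00789), while Ly6g and S100a9 reached at most 0.0785 and 0.0538 CPM. The eosinophil list summed to between 33.4 and 36.4 CPM in controls and between 27.4 and 28.9 CPM with the mimic, nearly all of it Siglecf, and Epx and Prg2 were at or near 0. The mesothelial and fibroblast list summed to between 18.3 and 26.1 CPM in controls and between 13.7 and 23.2 CPM with the mimic, and the dendritic cell list to at most 3.70 CPM. The part of these cells in the results was not tested, and in bulk RNA fewer cells of a type and less RNA per cell cannot be told apart. Mimic replicates 3, 4 and 6 stood apart in the slope of a gene's log2 deviation on the log2 length of its transcript. The slope was 0.058, 0.089 and 0.072 in them, -0.063, 0.017 and -0.0023 in mimic replicates 1, 2 and 5, and between -0.050 and -0.024 in the controls. Their median histone transcript was also the lowest, at a log2 CPM of 0.64, 0.18 and 0.20. It was 1.47, 1.00 and 0.78 in mimic replicates 1, 2 and 5 and between 1.26 and 1.69 in the controls. In both measures mimic replicates 2 and 5 also lay outside the controls, on the same side. Leaving out mimic replicates 3, 4 and 6 therefore does not remove these differences between the groups. Mimic replicate 1 deviated most from its group mean (SD over genes 0.253, against at most 0.214 in the others). Counts over the members and the other lists are therefore also given without mimic replicates 3, 4 and 6.

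With the mimic, 17 of the 32 tested members were higher and 1 was lower (limma, adjusted p below 0.05 over all genes), and 14 did not pass. Over all 12969 genes tested, 15.4% were higher and 14.6% lower. Because the members were chosen with earlier results of these data known, the contrasts with all genes are a description and not a test. The risers were Atf4, Ddit3, Nupr1, Trib3, Asns, Mthfd2 and 11 synthetases, and the gene that fell was Atf3. The median log2 fold change of the members was 0.18, against 0.00071 for all genes tested, and 27 of 32 had a positive difference. In 14 members all 6 mimic libraries lay above all 5 controls (8.89% of all genes did so), and in Atf3 all 6 lay below (6.04% of all genes). Without mimic replicates 3, 4 and 6, 18 members rose and 1 fell, at a median of 0.16, where 9.36% of all genes were higher and 6.83% lower; 15 of the higher members were the same genes. Dars and Eprs dropped out, and Mars, Sars and Wars came in, while the calls of the other 14 tested members, those that are not synthetases, were the same. The members other than synthetases changed by up to 1.58-fold, and the synthetases by up to 1.22-fold.

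**Figure D1:**
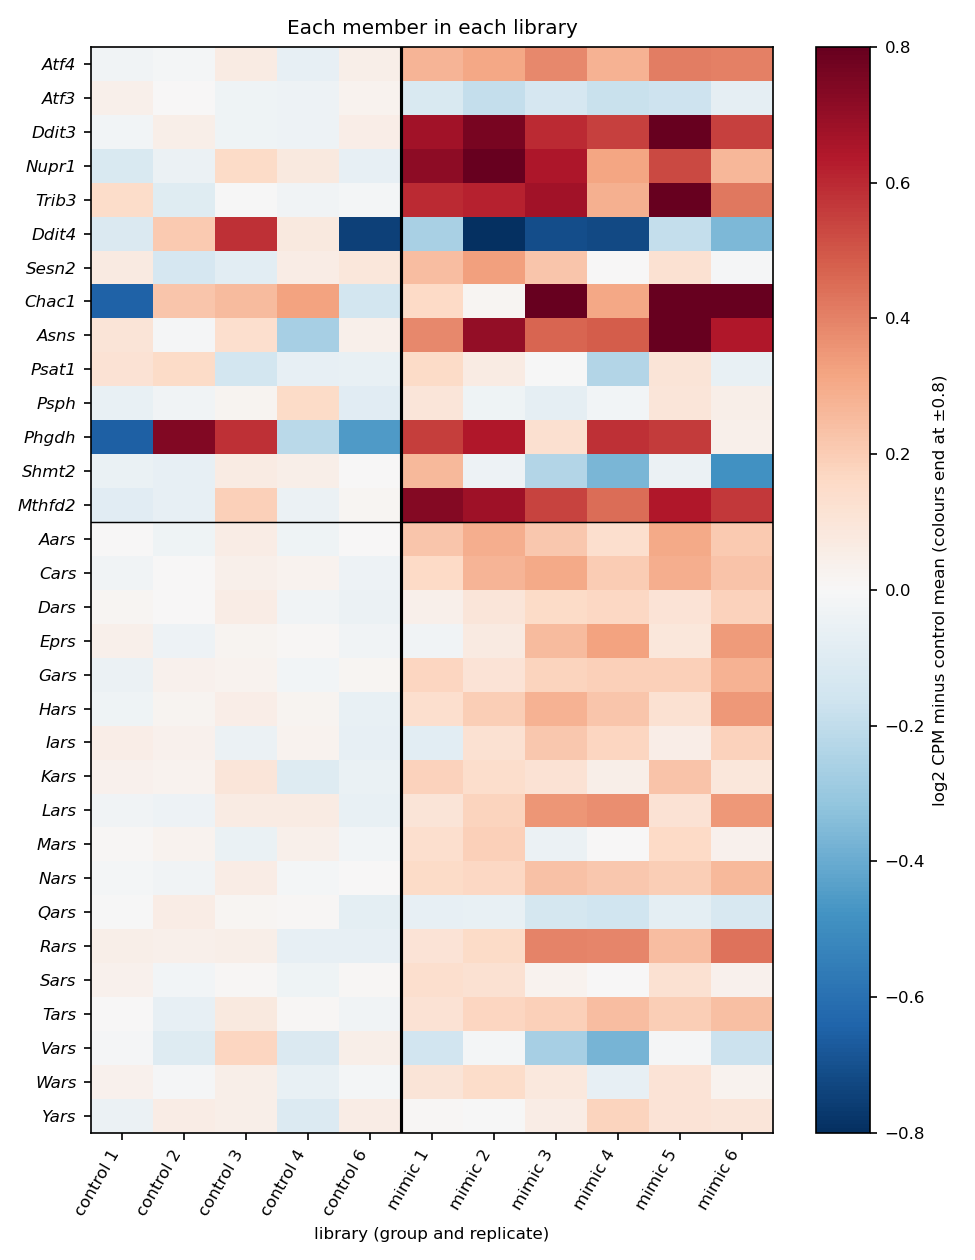
Each row is a tested member and each column a library; colour gives the log2 CPM minus the mean of the 5 controls, with colours ending at ±0.8 and the 14 pathway genes above the line and the 18 synthetases under it. Ddit3, Nupr1, Trib3, Asns and Mthfd2 were above every control in all 6 mimic libraries, while Ddit4, Chac1 and Phgdh, the members with the fewest reads, varied most between controls.

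Elements of the kind that ATF4 binds were looked for in the promoters, because the members are known for them and 17 of them rose. The window ran from 250 bases before to 50 after an annotated start of a gene (RefSeq sequences, build GRCm38.p6), and 25 of the 33 members had an entry. The letters searched were TGATGNAA, the core of the C/EBP-ATF response element, on both strands, as the only motif. At least 1 match was found in 10 of the 25 members: Nupr1, Atf3, Trib3, Chac1, Asns, Aars, Gars, Tars, Iars and Yars. Of all 32851 promoter windows 3.97% held a match, and of 27025 genes with a window 4.51% did. Because the members are known for such elements, this contrast describes the list and is not a test. The stretches around the matches are shown because they carry the shared element; each is turned so that the core, in capitals, reads in the same direction, and the strand given is that of the printed letters.
Nupr1, chr7:126625557-126625596, plus strand, match beginning 110 bases before the start base: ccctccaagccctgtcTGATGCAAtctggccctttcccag
Atf3, chr1:191183420-191183459, plus strand, match beginning 110 bases before the start base: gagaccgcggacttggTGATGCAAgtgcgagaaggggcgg
Trib3, chr2:152344023-152344062, plus strand, match beginning 14 bases after the start base: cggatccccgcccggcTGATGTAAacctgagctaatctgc
Chac1, chr2:119351033-119351072, minus strand, match beginning 193 bases before the start base: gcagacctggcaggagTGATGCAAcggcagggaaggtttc
Asns, chr6:7693209-7693248, minus strand, match beginning 23 bases before the start base: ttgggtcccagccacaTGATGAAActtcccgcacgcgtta
Aars (upstream match), chr8:111033714-111033753, minus strand, match beginning 112 bases before the start base: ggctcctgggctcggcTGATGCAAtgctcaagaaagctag
Aars (downstream match), chr8:111033835-111033874, minus strand, match beginning 9 bases after the start base: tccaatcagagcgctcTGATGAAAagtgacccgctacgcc
Gars, chr6:55037955-55037994, minus strand, match beginning 30 bases before the start base: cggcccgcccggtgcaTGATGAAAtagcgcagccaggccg
Tars, chr15:11399650-11399689, plus strand, match beginning 15 bases before the start base: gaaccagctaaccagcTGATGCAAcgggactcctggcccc
Iars, chr13:49682121-49682160, minus strand, match beginning 7 bases after the start base: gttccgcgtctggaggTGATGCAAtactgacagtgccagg
Yars, chr4:129189890-129189929, plus strand, match beginning 3 bases after the start base: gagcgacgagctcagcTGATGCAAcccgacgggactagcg

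In 9 of the 11 stretches the core lay on the strand opposite to the gene, and in Asns and Yars it lay on the strand of the gene. The variable base of the core was C in 7 stretches, A in the stretches of Asns, Gars and the downstream match of Aars, and T in Trib3. The whole windows of Asns, which rose most among the genes with a match on its own strand, and of Aars, the only member with 2 matches, are given in the direction of the gene with the matches in capitals.
Asns promoter, chr6:7693160-7693459, minus strand: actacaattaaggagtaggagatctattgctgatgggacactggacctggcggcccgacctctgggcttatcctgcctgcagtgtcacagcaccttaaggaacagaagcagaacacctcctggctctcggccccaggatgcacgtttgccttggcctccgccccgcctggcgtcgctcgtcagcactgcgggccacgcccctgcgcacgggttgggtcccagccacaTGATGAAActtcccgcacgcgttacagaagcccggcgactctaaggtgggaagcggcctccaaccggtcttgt
Aars promoter, chr8:111033592-111033891, plus strand: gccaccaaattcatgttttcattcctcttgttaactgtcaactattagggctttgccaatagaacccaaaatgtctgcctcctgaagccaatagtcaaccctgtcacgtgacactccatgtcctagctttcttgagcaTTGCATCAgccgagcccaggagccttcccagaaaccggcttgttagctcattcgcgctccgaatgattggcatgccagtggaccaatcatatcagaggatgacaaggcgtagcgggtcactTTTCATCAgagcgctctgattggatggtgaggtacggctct

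Of the 10 members with a match, 6 were higher (Nupr1, Trib3, Asns, Aars, Gars and Tars), 1 was lower (Atf3) and Chac1, Iars and Yars did not pass. Of the 15 members with a window and no match, 6 were higher and 0 lower. With mimic replicates 3, 4 and 6 left out, the same members with a match passed, and among those without one Mars and Sars passed in place of Dars and Eprs. Among tested genes that are not members, 51 of 253 with a match were higher (20.2%) and 32 lower (12.6%), and 1459 of 9239 without a match were higher (15.8%) and 1354 lower (14.7%). Atf3 and Nupr1 both carried the core 110 bases before the start used and moved in opposite directions. Each had 1 window, at a start inside the span given below for the gene, and their outermost annotated starts were not searched. Among the other lists of the pathway, 7 of 22 further reported ATF4 targets held a match (Vldlr, Fgf21, Pck2, Pycr1, Got1, Jdp2 and Avil). So did 2 of 8 amino acid transporter genes (Slc7a11 and Slc1a4) and 1 of 16 genes of the IRE1 and ATF6 branches (Herpud1). The count was 0 of 14 mitochondrial synthetases, 0 of 6 further synthetase subunits and 0 of 6 genes for eIF2 kinases and their regulators. Of the matched genes on these lists, Slc7a11 and Herpud1 were lower with the mimic, and none was higher. Pck2, Pycr1, Got1 and Jdp2 did not pass, and Vldlr, Fgf21, Avil and Slc1a4 had too few reads to test. A match is a run of letters and not evidence of binding, and windows without one say nothing of ATF4.

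Among the transcription factors, 3 of 4 rose and 1 fell, where 15.4% of all genes tested rose and 14.6% fell. Atf4 itself (chr15:80255184-80257541, GRCm38, as are all gene positions here) encodes the activator of the response. Its log2 CPM was 8.09, 8.13, 8.14, 8.20 and 8.22 in the controls, and with the mimic 8.43 at the lowest, 8.50 at the median and 8.57 at the highest. The groups did not overlap, and the log2 fold change was 0.34 ± 0.040 (SE), or 1.27-fold (limma adjusted p = 9.58e-06). The rise was 0.33 ± 0.038 without mimic replicates 3, 4 and 6 (limma adjusted p = 2.39e-07).

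Ddit3 (chr10:127290774-127296288) encodes CHOP, a C/EBP-family factor induced by ATF4 under prolonged stress. Its log2 CPM was between 5.29 and 5.38 in the 5 controls (5.29, 5.30, 5.31, 5.38 and 5.38) and ran from 5.88 through a median of 5.96 to 6.15 with the mimic. No other member rose with a smaller p: the log2 fold change was 0.66 ± 0.053 (SE), or 1.58-fold (limma adjusted p = 8.86e-08), and 0.75 without mimic replicates 3, 4 and 6. The gene shares 68 exonic bases with Mars on the opposite strand, and the strand setting of the counting was not stated in the labels. A second gene model of the same name shares 105 bases on the same strand. The log2 difference of Mars was 0.08 ± 0.050 (limma adjusted p = 0.24), which did not pass.

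Nupr1 (chr7:126623249-126630861), a small chromatin-associated stress protein known as a partner and target of the ATF4 pathway, measured 3.00, 3.06, 3.08, 3.20 and 3.28 in the controls and 3.39, 3.71 and 3.97 at the lowest, median and highest with the mimic, on the log2 CPM scale. The groups did not overlap, and the mimic replicates 4 and 6 were the nearest to the controls, at 3.44 and 3.39. The log2 fold change was 0.55 ± 0.097 (SE), with a limma adjusted p of 0.00068, and 0.70 without mimic replicates 3, 4 and 6.

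Atf3 (chr1:191170296-191218039), a stress-induced factor that is a target of ATF4 and in macrophages also restrains inflammatory genes, went the other way. Its log2 CPM was 9.41, 9.41, 9.45, 9.48 and 9.49 in controls and 9.26, 9.30 and 9.38 at the lowest, median and highest with the mimic. All mimic libraries were below all controls, but the fall was small, a log2 difference of -0.14 ± 0.035 (SE), with a limma adjusted p of 0.00762. After a correction for transcript length it was -0.09 and no longer passed (limma adjusted p = 0.0549). Per kilobase of longest annotated transcript, Atf3 was the most abundant member in controls, at 353 ± 8.65 (SD, n = 5) in reads scaled to transcript length and library size (RPKM), followed by Atf4 at 142 ± 5.38 and Nars at 53.4 ± 1.45.

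**Figure D2:**
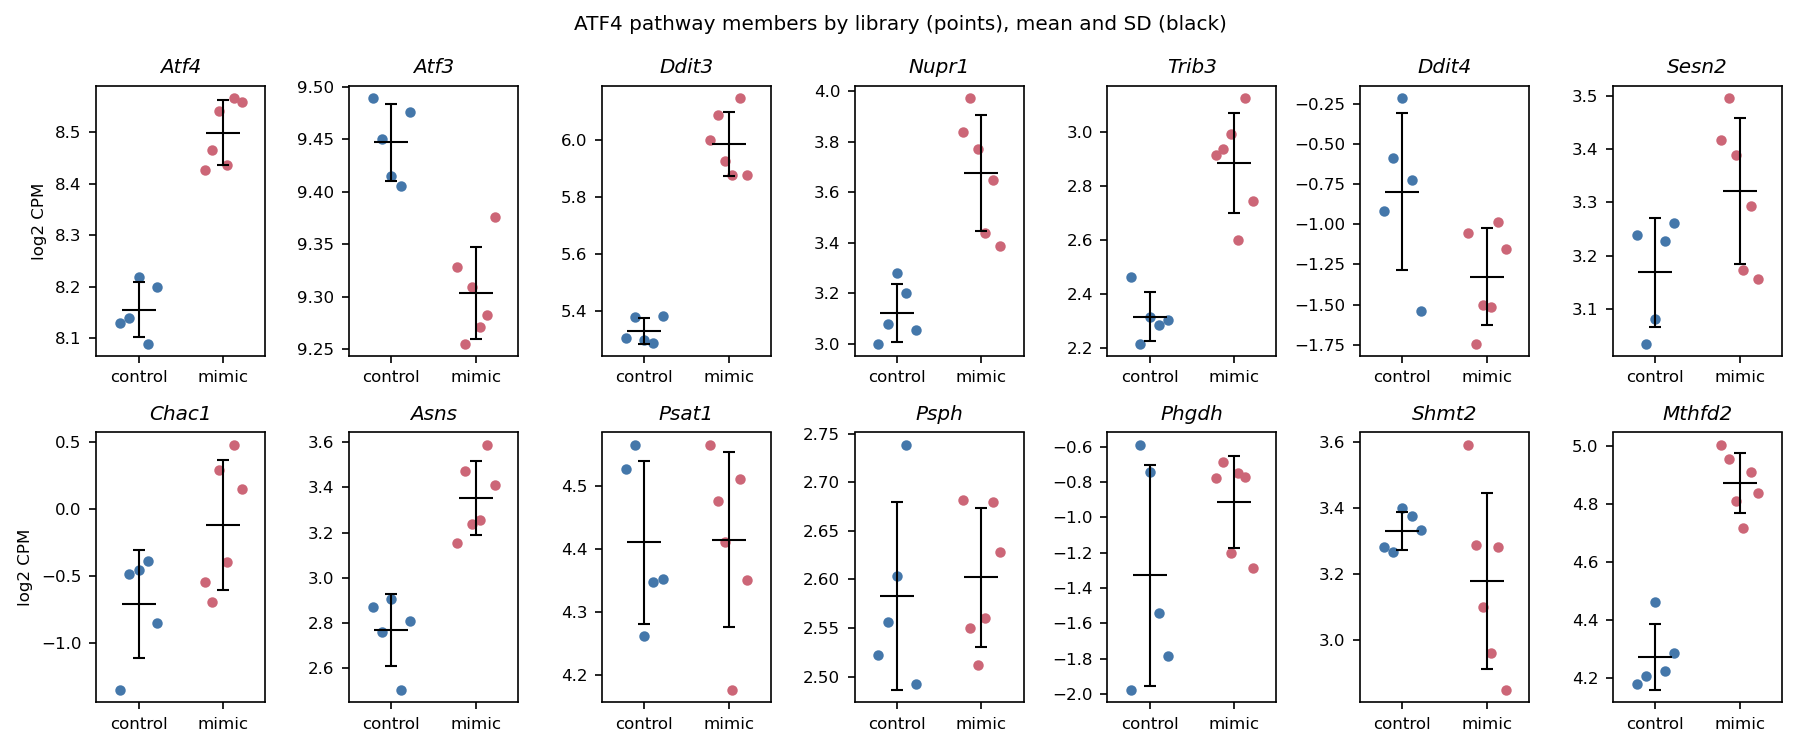
Each panel plots the log2 CPM of a pathway member in the 5 control and 6 mimic libraries (points), with the mean and SD in black; the vertical axes differ between panels. In Atf4, Ddit3, Nupr1, Trib3, Asns and Mthfd2 all mimic points lie above the control points, in Atf3 all lie below, and in the other 7 panels the groups overlap.

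Of the 4 feedback and stress effectors, Trib3 rose and the other 3 did not pass, where 15.4% of all genes tested rose. Trib3 (chr2:152337422-152344032) encodes a pseudokinase that binds ATF4 and CHOP and dampens their activity. It measured 2.22, 2.29, 2.30, 2.31 and 2.46 in controls and 2.60, 2.92 and 3.12 at the lowest, median and highest with the mimic. The groups did not overlap, at a log2 fold change of 0.57 ± 0.090 (SE), or 1.48-fold (limma adjusted p = 0.000282).

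Chac1, which encodes an enzyme that degrades glutathione, is among the most sensitive known reporters of ATF4 and was scarce here. Its log2 CPM was -1.35, -0.85, -0.49, -0.46 and -0.39 in controls and -0.69, -0.12 and 0.48 at the lowest, median and highest with the mimic. Only 3 of 6 mimic libraries lay above every control. Its log2 fold change of 0.59 ± 0.25 (SE) was like that of Trib3 in size but did not pass (limma adjusted p = 0.0865). Leaving out mimic replicate 1 (0.67, limma adjusted p = 0.0425) or mimic replicate 2 (0.70, limma adjusted p = 0.0454) brought it past the threshold, as did a voom fit with library weights (0.74, limma adjusted p = 0.0167). That fit gave mimic replicate 1 the lowest weight of all libraries, 0.36, and mimic replicate 3 the highest, 1.82.

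Sesn2 encodes sestrin 2, a leucine sensor that restrains the growth kinase complex mTORC1. It measured 3.04, 3.08, 3.23, 3.24 and 3.26 in controls and 3.16, 3.34 and 3.50 at the lowest, median and highest with the mimic, with 4 of 6 mimic libraries above every control. The difference, 0.15 ± 0.075 (SE) on the log2 scale, did not pass (limma adjusted p = 0.134). Ddit4 encodes REDD1, a further inhibitor of mTORC1 that also answers to glucocorticoids and low oxygen. Its log2 CPM of -1.54, -0.91, -0.72, -0.59 and -0.21 in controls spanned most of the mimic values, which were -1.74, -1.33 and -0.98 at the lowest, median and highest. Its log2 difference was -0.53 ± 0.26 (SE; limma adjusted p = 0.129), and it passed as lower only when control replicate 6, the lowest control, was left out (-0.72, limma adjusted p = 0.0454).

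Among the enzymes of amino acid synthesis and folate metabolism, Asns and Mthfd2 rose and none of the serine pathway genes passed. Asns (chr6:7675169-7693254), asparagine synthetase, measured 2.50, 2.76, 2.81, 2.87 and 2.91 in controls and 3.15, 3.33 and 3.59 at the lowest, median and highest with the mimic, on the log2 CPM scale. The groups did not overlap, and the log2 fold change was 0.58 ± 0.090 (SE) (limma adjusted p = 0.000201).

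Mthfd2 (chr6:83305691-83325908) encodes a mitochondrial folate enzyme that passes on the carbon unit of serine. Control libraries had a log2 CPM of 4.18, 4.21, 4.23, 4.29 and 4.46, and mimic libraries 4.72, 4.87 and 5.00 at the lowest, median and highest. All mimic libraries were above all controls, with a log2 fold change of 0.60 ± 0.063 (SE), or 1.52-fold (limma adjusted p = 2.34e-06).

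The serine synthesis genes are usually counted with these as ATF4 targets, and Psat1 and Psph differed by little between the groups. Psat1, the aminotransferase of the pathway, measured 4.26, 4.35, 4.35, 4.53 and 4.56 in controls and 4.18, 4.44 and 4.56 at the lowest, median and highest with the mimic, a log2 difference of 0.0043 ± 0.073 (SE; limma adjusted p = 0.97). Psph, the phosphatase of its last step, measured 2.49, 2.52, 2.56, 2.60 and 2.74 against 2.51, 2.59 and 2.68, a difference of 0.02 ± 0.071 (limma adjusted p = 0.855). In both genes the mimic and control libraries lay over each other, and the SEs are smaller than those of Trib3 and Asns. Psph shares 452 exonic bases with Cct6a on the opposite strand.

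Phgdh, the first enzyme of the pathway, was close to the detection limit, at a log2 CPM of -1.98, -1.78, -1.54, -0.74 and -0.59 in controls and -1.29, -0.77 and -0.69 at the lowest, median and highest with the mimic. Its difference of 0.42 ± 0.28 (SE) did not pass (limma adjusted p = 0.27). Shmt2, the mitochondrial enzyme that takes serine to glycine just before Mthfd2, measured 3.27, 3.28, 3.33, 3.37 and 3.40 in controls and 2.85, 3.19 and 3.59 with the mimic. The mimic libraries spread on both sides of the controls, with replicate 1 above them all and replicates 3, 4 and 6 below them all. The difference was -0.15 ± 0.10 (limma adjusted p = 0.28), 0.06 without mimic replicates 3, 4 and 6, and -0.23 without mimic replicate 1, where it passed (limma adjusted p = 0.0319). Cth, cystathionine gamma-lyase of cysteine synthesis, had too few reads to test, 13 reads summed over controls and 26 summed over mimic libraries, with 1 to 7 in any library.

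The synthetases, which charge each transfer RNA with its amino acid, moved by less: the largest rise among them was 1.22-fold. Of 18, 11 rose and 0 fell, where 15.4% of all genes rose and 14.6% fell. The median of the 18 was 0.16 on the log2 scale. All 18 were well detected, with an RPKM between 6.47 and 53.4 in controls. The risers, by size, were Rars (0.29 ± 0.059, SE), Lars (0.25 ± 0.057), Cars (0.24 ± 0.042), Aars (0.23 ± 0.039), Hars (0.22 ± 0.047), Nars (0.20 ± 0.035), Tars (0.19 ± 0.041), Gars (0.19 ± 0.039), Eprs (0.18 ± 0.060), Kars (0.14 ± 0.046) and Dars (0.13 ± 0.039). In fold terms these rises ran from 1.09 to 1.22. Without mimic replicates 3, 4 and 6, 12 were higher and 0 lower, where 9.36% of all genes were higher and 6.83% lower.

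**Figure D3:**
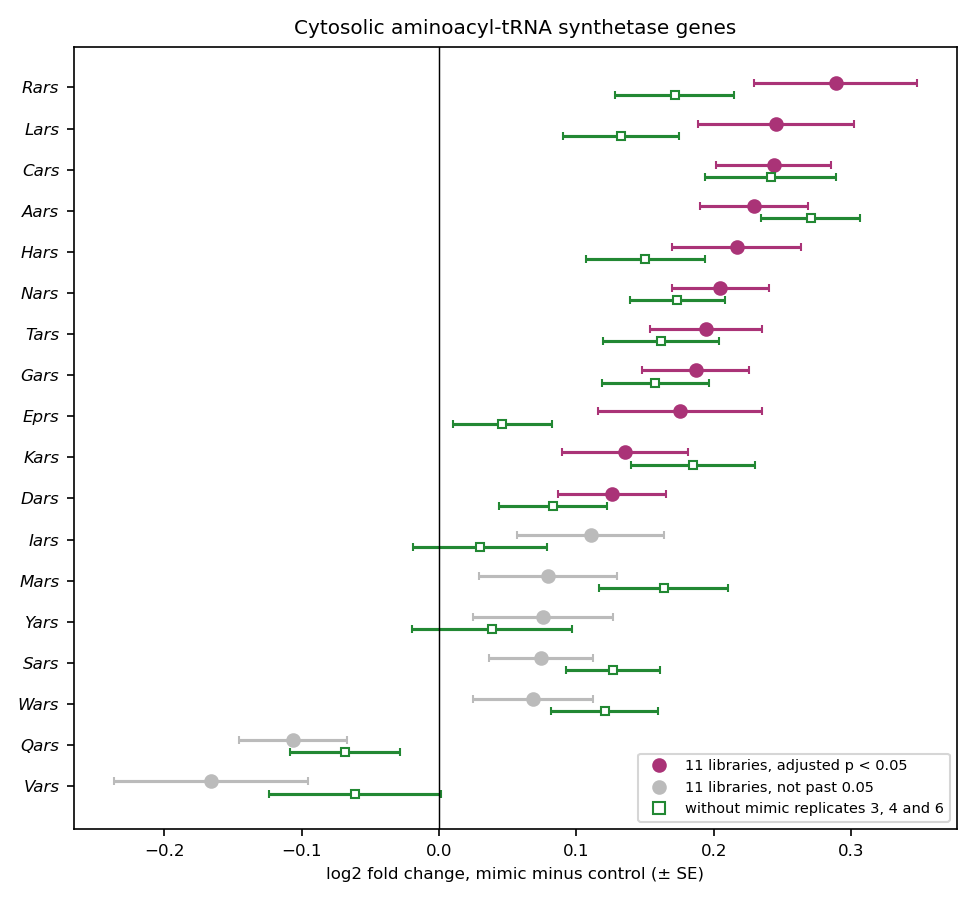
Filled circles give the log2 fold change of each cytosolic synthetase gene over all 11 libraries and open squares the same without mimic replicates 3, 4 and 6, with bars of 1 SE. In the fit to all libraries 16 of 18 circles lie to the right of 0 and only Qars and Vars to the left, and Rars, Lars and Eprs shift most to the left when the 3 libraries are removed.

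Aars (chr8:111033144-111057664), the alanine enzyme, had the smallest p of the group. It had a log2 CPM of 6.97, 6.98, 7.01, 7.02 and 7.07 in controls and 7.15, 7.23 and 7.32 at the lowest, median and highest with the mimic (limma adjusted p = 0.000533). Its annotated exons share 1326 bases with Exosc6 on the same strand, so part of its reads may have been dropped or counted for that gene. Cars (chr7:143557230-143600090), the cysteine enzyme, measured 5.10, 5.11, 5.14, 5.17 and 5.18 in controls and 5.30, 5.39 and 5.44 with the mimic (limma adjusted p = 0.000538), and shares 211 exonic bases with a pseudogene on the opposite strand. In both genes every mimic library was above every control, and the rise was as large without mimic replicates 3, 4 and 6, at 0.27 and 0.24.

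Nars, the asparagine enzyme (chr18:64499647-64516652), measured 7.16, 7.17, 7.17, 7.19 and 7.25 in controls and 7.34, 7.40 and 7.45 at the lowest, median and highest with the mimic (limma adjusted p = 0.000605). Gars, for glycine, measured 6.16, 6.19, 6.23, 6.24 and 6.25 against 6.33, 6.40 and 6.49 (limma adjusted p = 0.00253). Tars, for threonine, measured 5.82, 5.86, 5.89, 5.89 and 5.96 against 6.00, 6.08 and 6.13 (limma adjusted p = 0.00259). None of these 3 overlapped between groups, and all 3 still passed without mimic replicates 3, 4 and 6.

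In Rars, Lars, Hars and Eprs the rise was larger in the libraries that stood apart. Rars, for arginine (chr11:35808381-35834506), measured 6.11, 6.11, 6.22, 6.22 and 6.22 in controls, and with the mimic 6.57, 6.57 and 6.61 in replicates 3, 4 and 6 but 6.29, 6.33 and 6.43 in replicates 1, 2 and 5. Its rise went from 0.29 (limma adjusted p = 0.00228) to 0.17 without those 3 libraries (limma adjusted p = 0.00639). Lars, for leucine, measured 6.08, 6.10, 6.11, 6.20 and 6.21 in controls and 6.24, 6.40 and 6.51 at the lowest, median and highest with the mimic, and its rise went from 0.25 (limma adjusted p = 0.00511) to 0.13 (limma adjusted p = 0.0306). Both stayed past the threshold with lower values.

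Hars, for histidine, measured 5.57, 5.60, 5.65, 5.66 and 5.69 in controls and 5.75, 5.84 and 5.98 with the mimic (limma adjusted p = 0.00334), and its rise of 0.22 became 0.15. Hars shares 195 exonic bases with Hars2, its mitochondrial counterpart, on the opposite strand. Eprs, which encodes the joint enzyme for glutamate and proline, measured 7.47, 7.48, 7.52, 7.53 and 7.55 in controls and 7.49, 7.69 and 7.85 with the mimic, so the groups overlapped. Its call was the least secure: the rise of 0.18 (limma adjusted p = 0.0361) became 0.05 without mimic replicates 3, 4 and 6 (limma adjusted p = 0.436), and it was also lost when any 1 of 8 libraries (each of the 5 controls, mimic replicates 3, 4 and 6) was left out, with a limma adjusted p of up to 0.0828.

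Dars, for aspartate, and Kars, for lysine, also overlapped between groups. Dars measured 6.17, 6.20, 6.22, 6.24 and 6.28 in controls and 6.26, 6.36 and 6.41 with the mimic (limma adjusted p = 0.025). Kars measured 5.90, 5.95, 6.03, 6.04 and 6.10 against 6.05, 6.13 and 6.23 (limma adjusted p = 0.0358). The Dars call was lost without control replicate 4 or 6 or mimic replicate 3 or 6 (limma adjusted p of up to 0.0632). The Kars call was lost without control replicate 1, 2, 4 or 6 or mimic replicate 2, 3 or 5 (limma adjusted p of up to 0.104). With the other 3 mimic libraries alone, Dars measured 0.08 (limma adjusted p = 0.163) and Kars 0.18 (limma adjusted p = 0.00463).

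The other 7 synthetases did not pass. Iars (0.11 ± 0.053, SE), Mars (0.08 ± 0.050), Yars (0.08 ± 0.051), Sars (0.07 ± 0.038) and Wars (0.07 ± 0.044) had positive differences, and Qars (-0.11 ± 0.039) and Vars (-0.17 ± 0.070) negative ones, with limma adjusted p between 0.0509 for Qars and 0.273 for Yars. Qars, the glutamine enzyme, measured 6.16, 6.23, 6.25, 6.25 and 6.30 in controls and 6.08, 6.13 and 6.17 at the lowest, median and highest with the mimic. Vars, the valine enzyme, measured 4.62, 4.63, 4.73, 4.78 and 4.91 against 4.36, 4.57 and 4.72. Both lay at the edge of the threshold and passed as lower in the voom fit with library weights (-0.12 and -0.18; limma adjusted p = 0.0135 and 0.0320), and in that fit Iars passed as higher (0.14, limma adjusted p = 0.0153). Qars also passed without control replicate 6, mimic replicate 1 or mimic replicate 2, Vars without mimic replicate 2 or 5, and Iars, as higher, without mimic replicate 1. Wars, the tryptophan enzyme and a gene known to be induced by interferon gamma, measured 6.14, 6.19, 6.19, 6.23 and 6.24 in controls and 6.13, 6.29 and 6.35 with the mimic. Without mimic replicates 3, 4 and 6, Mars (0.16), Sars (0.13) and Wars (0.12) passed as higher (limma adjusted p = 0.0161, 0.0108 and 0.0344).

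The listed mitochondrial synthetases, which serve the transfer RNAs of the organelle, were less often called. Of 17, 1 was higher (Iars2, 0.10 ± 0.035, SE; limma adjusted p = 0.0416) and 0 were lower, and the median of the list was -0.014. Of all genes tested, 15.4% were higher and 14.6% lower. The difference between the cytosolic and mitochondrial sets was not tested. The mitochondrial set was also less abundant, with a control RPKM of 1.05 to 16.6, against 6.47 to 53.4 in the cytosolic set. Its SEs ran from 0.035 to 0.38, against 0.035 to 0.070. In genes with the larger SEs, a rise of the size seen in the cytosolic set could go uncalled. Iars2 did not pass without mimic replicates 3, 4 and 6 (limma adjusted p = 0.18) or after the correction for transcript length (limma adjusted p = 0.291), where Rars2 passed instead (0.16, limma adjusted p = 0.0435). The count higher was also 0 when any 1 of 8 libraries was left out (each of the 5 controls, mimic replicates 3, 4 and 6), and the count lower was 1 without control replicate 1 or mimic replicate 1. In the voom fit with library weights, Iars2 (0.11) and Rars2 (0.13) passed as higher (limma adjusted p = 0.0111 and 0.0429). Fars2 (-0.16) and Sars2 (-0.25) passed there as lower (limma adjusted p = 0.0271 and 0.0315). Of the further subunits and accessory factors, Aimp1, a scaffold of the cytosolic multi-synthetase complex, was higher, at 0.17 ± 0.049 (SE; limma adjusted p = 0.0151), and did not pass without mimic replicates 3, 4 and 6 (0.11, limma adjusted p = 0.134). Farsa and Farsb, the subunits of the phenylalanine enzyme, did not pass (limma adjusted p = 0.987 and 0.909).

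Upstream of ATF4, 1 of the 4 eIF2 kinases changed. Eif2ak2, which encodes PKR, the kinase activated by double-stranded RNA and an interferon-induced gene, had a log2 CPM of 5.55 to 5.72 in controls and 6.64 to 7.05 with the mimic, a rise of 1.17 ± 0.076 (SE; limma adjusted p = 7.18e-09). The other kinases did not pass: Eif2ak1 (HRI) measured 0.04 ± 0.041, Eif2ak3 (PERK) -0.10 ± 0.046 and Eif2ak4 (GCN2) 0.10 ± 0.045, with limma adjusted p between 0.105 and 0.461. In the voom fit with library weights Eif2ak3 passed as lower (-0.11, limma adjusted p = 0.0442) and Eif2ak4 as higher (0.11, limma adjusted p = 0.0357), and after the correction for transcript length Eif2ak3 passed (-0.14, limma adjusted p = 0.0361) and Eif2ak4 did not. Over this list of 9 kinases and regulators, 4 rose, 2 fell and the median was 0.097, where 15.4% of all genes rose and 14.6% fell. Eif2s1, the phosphorylated subunit of eIF2, rose by 0.23 ± 0.049, and Impact, an inhibitor of GCN2, by 0.20 ± 0.048. Ppp1r15b, which encodes the constitutive partner of the eIF2 phosphatase, rose by 0.15 ± 0.051. Gcn1l1, an activator of GCN2, fell by 0.16 ± 0.040 on the log2 scale, and Ppp1r15a, the stress-induced phosphatase partner GADD34 and a known ATF4 and CHOP target, fell by 0.21 ± 0.056 (the largest limma adjusted p of these 5 genes was 0.0366). Without mimic replicates 3, 4 and 6, 3 of the list were higher and 1 lower, where 9.36% of all genes were higher and 6.83% lower. Ppp1r15a and Ppp1r15b did not pass in that fit.

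Amino acid transporter genes of the response were split. Of 12 listed, 9 were tested, 3 rose, 2 fell and the median was 0.045 on the log2 scale. For all genes tested the shares were 15.4% higher and 14.6% lower. Slc7a1, the carrier of cationic amino acids, rose by 0.39 ± 0.099 (SE), Slc7a5, the light chain of the large neutral amino acid exchanger, by 0.36 ± 0.098, and Slc38a2, a carrier of small neutral amino acids, by 0.24 ± 0.059 (largest limma adjusted p = 0.0127). Slc1a5, a glutamine carrier, fell by 0.27 ± 0.055 and Slc7a11, the cystine carrier that is also a target of NRF2, by 0.20 ± 0.072 (limma adjusted p = 0.00214 and 0.0444). Slc7a1 and Slc38a2 no longer passed without mimic replicates 3, 4 and 6 (0.28 and 0.15; limma adjusted p = 0.128 and 0.0543), while Slc3a2, the heavy chain of several exchangers, passed as higher (0.12, limma adjusted p = 0.0179) and Slc7a11 fell by 0.36 (limma adjusted p = 2.43e-07), so that 2 were higher and 2 lower. Of all genes tested without mimic replicates 3, 4 and 6, 9.36% were higher and 6.83% lower. The count of transporters lower was 1 instead of 2 when any 1 of 9 libraries was left out (each of the 5 controls, mimic replicates 1, 2, 3 and 5).

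**Figure D4:**
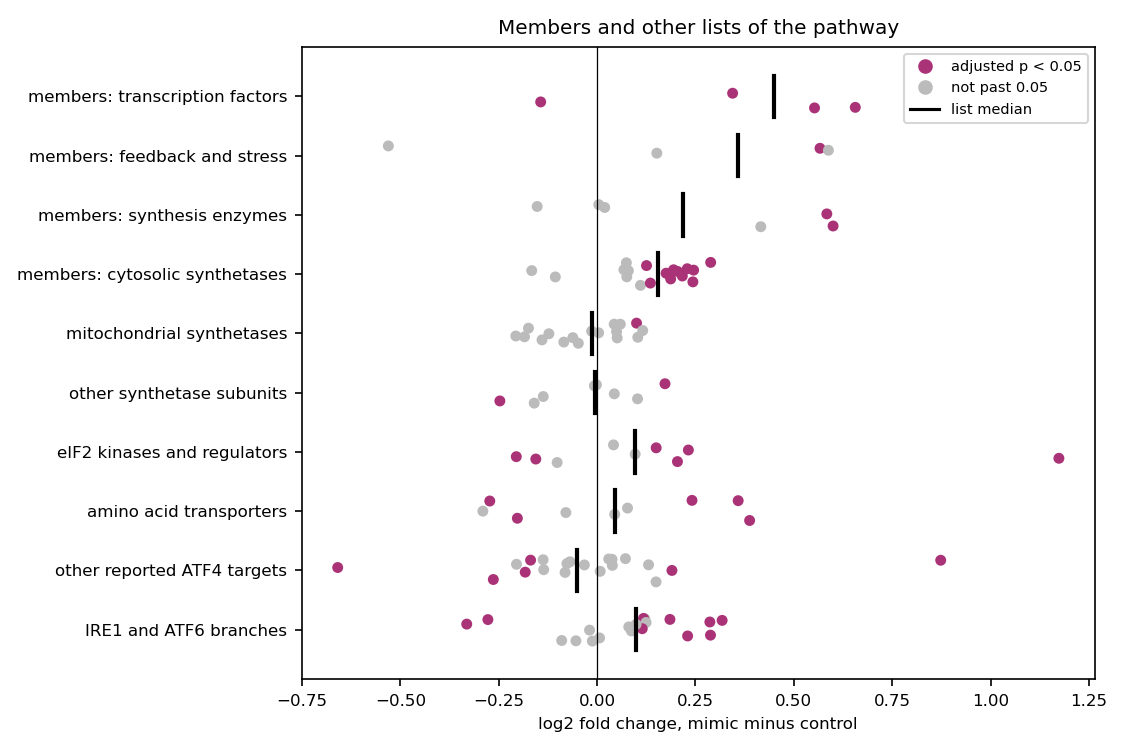
Each point is the log2 fold change of a tested gene, in purple where the limma adjusted p was below 0.05 and in grey otherwise, with the median of each list as a black bar. The 4 groups of members have medians of 0.45, 0.36, 0.22 and 0.16 from top to bottom, and the other 6 lists lie between -0.051 and 0.099.

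Among further genes reported as ATF4 targets, calls went in both directions. Of 26 listed, 20 were tested, 2 rose, 4 fell and the median was -0.051 on the log2 scale. The shares over all genes tested were 15.4% higher and 14.6% lower. Cebpb, a C/EBP factor that dimerises with ATF4, was 7.83 to 7.94 in controls and 6.89 to 7.64 with the mimic on the log2 CPM scale, and fell by 0.66 ± 0.11 (SE; limma adjusted p = 0.00112). The fall was 0.42 without mimic replicates 3, 4 and 6. Eif4ebp1, a repressor of cap-dependent translation, fell by 0.26 ± 0.070 and Gadd45a, a growth arrest gene, by 0.17 ± 0.045 (limma adjusted p = 0.0118 for each), and neither passed without those libraries. Soat2, a cholesterol esterifying enzyme, rose from a low level by 0.87 ± 0.17 (limma adjusted p = 0.00154). Aldh18a1, which starts proline synthesis, rose by 0.19 ± 0.062 and Atf5, a relative of ATF4, fell by 0.18 ± 0.063 (limma adjusted p = 0.0298 and 0.0371). Without mimic replicates 3, 4 and 6, 3 of this list were higher (Soat2, Aldh18a1 and Sqstm1) and 1 lower (Cebpb). In that fit 9.36% of all genes were higher and 6.83% lower. The count higher was 1 when control replicate 1, 2 or 6 or mimic replicate 2 or 5 was left out, and 3 when mimic replicate 1 was.

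The branches of the unfolded protein response run by IRE1 and ATF6 act on chaperones rather than on amino acid supply. Of their 19 listed genes, 7 rose and 2 fell, where 15.4% of all genes rose and 14.6% fell, and their median was 0.099. Hspa5, the chaperone BiP, rose by 0.32 ± 0.042 (SE), Pdia4, a disulfide isomerase, by 0.29 ± 0.046 and Dnajb11, a cochaperone, by 0.23 ± 0.046 (largest limma adjusted p = 0.00194). Herpud1, of endoplasmic reticulum-associated degradation and a gene reached by ATF4 as well, fell by 0.33 ± 0.063 (limma adjusted p = 0.00121). Xbp1, the factor of the IRE1 branch, measured 0.01 and did not pass. Without mimic replicates 3, 4 and 6, 5 were higher and 2 lower, where 9.36% of all genes were higher and 6.83% lower.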

How the data were processed

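The libraries were grouped, and numbered, from their titles. The submitters' processing notes list STAR, Subread with featureCounts, and edgeR; their versions, the genome build, the annotation and the strand setting are not given in the sources used here. Values were deposited by the authors as log2 CPM. Each is the log2 of whole reads plus 0.5 over a scaled library total, and the recovered reads were whole for 100% of values within 0.01 read. The deposited table also holds the authors' p-values, log2 fold changes, signed fold and test score for each gene.

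The test was limma 3.58.1 (R 4.3.3, statmod 1.5.0; trend and robust options) with a group term, on the 12969 genes that reached a log2 CPM of -1 in 5 or more libraries. Benjamini-Hochberg adjustment ran over all of them, and 0.05 was the threshold. In data simulated with the real means for 12969 genes, the fit recovered 87.9% of log2 rises of 0.5 and 57.6% of those of 0.25. For falls of these sizes it recovered 87.9% and 48.5%. The simulation gave all genes the same dispersion, changed only 33 or 34 genes per size and held no libraries that stood apart. These rates may therefore differ from those in the real data. RPKM was computed from recovered reads and the longest transcript in GENCODE M21. Tables and plots came from Python (pandas 2.3.3, numpy 2.4.6, matplotlib 3.10.9).

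The members, lists and alternatives were chosen with earlier results of these data known. By rule, values by library are given for the members other than synthetases and for synthetases that were called or had the 3 smallest p in a direction; of each other list up to 4 called genes are named by smallest p, and all eIF2 kinases. Aldh18a1, Atf5, Ppp1r15b, Slc7a11, Slc3a2, Sqstm1, Rars2, Fars2, Sars2, Farsa, Farsb, Xbp1 and Wars were named after their values were seen. Alternatives changed the scaling, filter, pseudocount, weighting (voom on recovered reads), threshold, replicate block, libraries included and correction for transcript length. A gene of the list of further synthetase factors is not reported here.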

Additional observations from a re-analysis of the deposited data

How the results depend on the processing

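No member changed direction past the threshold under any alternative, and the counts of members called higher (14 to 19) stayed within 1.5 times the reported 17. The counts over all 12969 genes moved as well. There, 2964 genes were higher in the weighted voom fit and 2693 without mimic replicate 1, each with 19 members higher. In the reported fit 1997 were. Without control replicate 4, control replicate 6 or mimic replicate 3 it was 1548, 1488 and 1490, each with 14 members higher. Genes called lower numbered 1895 in the reported fit and 2665 in the voom fit. The count of all members called lower was 1, but 2 with total read scaling, with median ratio scaling, with the filter at a log2 CPM of 1 and with the correction for transcript length, and 4 in the weighted voom fit. Of these, synthetases made up 1 with either scaling and with that filter, and 2 in the voom fit and with the length correction; Qars was among them in each. Members other than synthetases called lower numbered 2 in the voom fit and 0 with the length correction, where Atf3 no longer passed. With each library left out in turn the lower counts ran from 1 to 3 for all members, 1 to 2 without synthetases and 0 to 2 for synthetases, and the higher counts from 14 to 19, 6 to 7 and 8 to 12. The causes were not tested. At an adjusted p below 0.01, Dars, Eprs and Kars did not pass. With the replicate number as a replicate block, on the 10 libraries with a shared number, 15 members were higher and 1 lower, against 16 and 2 on the same libraries unblocked. Over all 12969 genes, 1775 were higher and 1793 lower with the block, against 1991 and 1930 unblocked. Same-numbered libraries correlated between -0.061 and 0.062 in their deviations, and only control replicate 4 correlated best with the mimic library of its own number. The labels do not say if a shared number marks a shared animal or day, and these correlations cannot settle it. The authors' deposited table calls 15 members higher and 1 lower. Depth limits Cth, Phgdh, Ddit4 and Chac1, which had the fewest reads of the members.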

Other observations

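The 5 genes outside the members whose deviations from the group means followed those of Atf4 most closely over the 11 libraries were Kif11, Pcnx, AA414768, Itga5 and Mybbp1a (Pearson r between 0.906 and 0.941). They were picked as the highest of all tested genes, so these values are a description without a test. Of the 5, AA414768 was lower with the mimic (log2 fold change -0.49; limma adjusted p = 0.000538) and the other 4 did not pass.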
